A study of Homo sapiens with 2 samples.

Results

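The genes described here build, cap, crosslink and pull on actin filaments. They were chosen as a list of 56 named genes of actin nucleation, filament turnover, crosslinking and myosin contraction, in 12 role groups. Of the 56, 50 had at least 1 probe set annotated with that gene alone, among 11963 genes with such a probe set on the array. The other 6 members (ACTG1, ACTR2, WASF1, ABI2, CFL2 and FLNA) had none and have no value of their own. The list was drawn up with earlier results of these data known, so the counts below are a description of it.

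RNA was measured on Affymetrix U133A arrays in H6c7, an epithelial line from human pancreatic duct made immortal by papillomavirus genes, and in its derivative carrying an introduced K-ras oncogene. Both lines share that immortalised background, and each was represented by 1 array (n = 1). The labels name neither the K-ras allele nor the vector, name no empty-vector control, and leave unsaid if the K-ras line was 1 clone or a pool. The comparison asks which actin genes differ in level once the oncogene is present, and with 1 array per line no difference could be tested. In such bulk RNA, fewer cells of a type and less RNA per cell cannot be told apart.

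Actin monomers assemble into filaments that the cell nucleates, elongates, caps, cuts and bundles. The ARP2/3 complex starts a new branch on an existing filament once a WAVE or N-WASP protein activates it, formins start straight filaments, profilin delivers monomers, cofilin takes old filaments apart, and capping protein stops growth at the fast end. ERM proteins tie filaments to the membrane, tropomyosins coat them, and nonmuscle myosin II pulls on them. In epithelial cells such as those of the pancreatic duct, this machinery carries the cortex below the membrane, the junctional belt, microvilli and the protrusions of moving cells.

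Values are signal intensities of 1 probe set per gene, in arbitrary units, and ratios are K-ras over parental on a log2 scale unless called a fold. The probe set with the highest mean log2 signal stood for a gene. The floor was 46.9, taken from the array with the higher median signal (control probe sets left out). Where 1 of the arrays was under the floor, the floor replaced its signal and the ratio, a bound, is marked by the words at least. Genes under it on both are called not measured. The spread of the log2 ratio between probe sets was taken as the standard deviation within genes that have several probe sets. It was 0.46 over 1671 genes and 0.43 over the 16 members where more than 1 probe set reached the floor on each array. These probe sets were read on the same arrays, so the spread holds no variation between replicate arrays or cultures. Signals of different genes are not compared, since probes differ in brightness.

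The arrays were close in scale. The median signal was 43.9 on the parental and 46.9 on the K-ras array, and 10791 and 11109 non-control probe sets lay at or above the floor. The ratio of the 3′ to the 5′ control probe set of ACTB, a measure of RNA integrity, was 1.28 on the parental and 1.10 on the K-ras array, and that of GAPDH 0.82 and 0.89. Some duct epithelial markers were well above the floor on both arrays and under 2-fold. Among them were KRT18 at 6622 and 8606, KRT7 at 3075 and 2466 and CDH1 at 1515 and 1487. Of the 10 duct markers, 9 were measured, and CFTR was not. None was at least 2-fold higher, and 4 (44.4%, against 14.4% of all measured genes) were lower by as much. These were KRT19 at 4511 and 1644, EPCAM at 994 and 477, SOX9 at 378 and 185, and CA2 at 267 and below the floor. Leukocyte markers above the floor were on the K-ras array alone, 4 of 9, none over 78.2, and PTPRC was below it on both. Their summed signal was 182 on the parental and 329 on the K-ras array. Endothelial markers summed to 152 and 277 (3 of 8 measured) and fibroblast markers to 300 and 396 (4 of 10 measured), with CDH5, KDR, LUM and PDGFRB below the floor on both arrays. The part of these cell types in the ratios below was not tested.

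Of the 50 members with a probe set, 47 were measured. Of these, 6 (12.8%) were higher by 2-fold or more with the oncogene and 7 (14.9%) were lower by as much, against 9.97% and 14.4% of all 7693 measured genes. Both shares lay near the background, so the number of changed members is no feature of the list. At 3-fold, 1 member was higher (2.13%, against 2.40% of all genes) and 5 were lower (10.6%, against 6.24%). The higher one was EPS8L1, by its chosen probe set alone. The median log2 ratio of the 47 was -0.11, against 0.10 over all measured genes, and it was 0.08 when the arrays were scaled on 100 maintenance probe sets. The split of 6 higher and 7 lower became 3 and 7 under median centring. The members are described next by role, in groups of 1 to 7 measured genes, too few to set their counts against these shares.

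**Figure D1:**
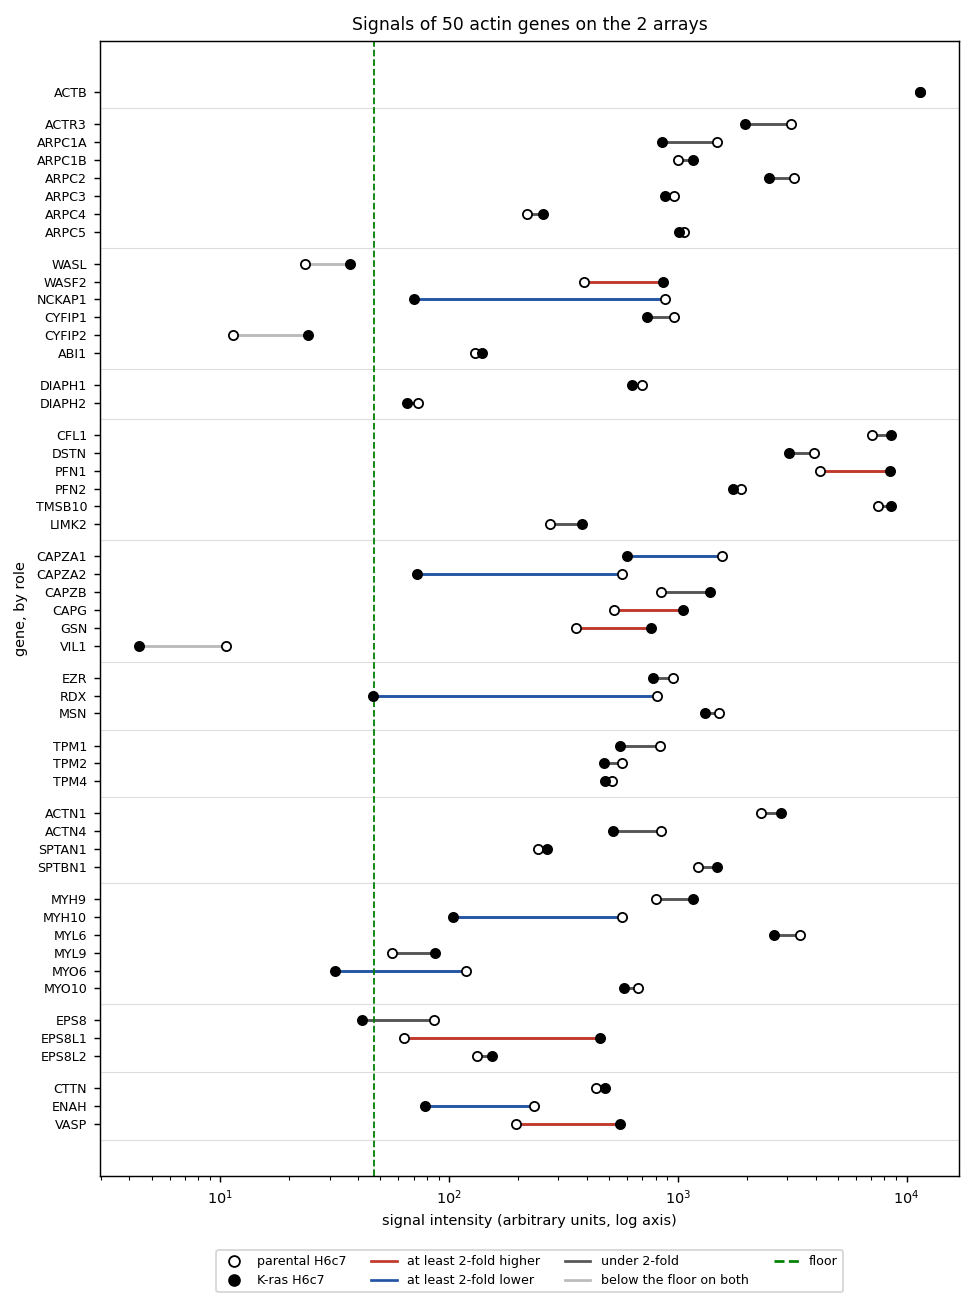
Signal intensity (log axis) of the 50 members with a probe set, grouped by role, in the parental line (open circles) and the K-ras line (filled circles), with 1 array each. Red bars join genes higher by 2-fold or more with the oncogene, blue bars those lower by as much, grey bars the others, and the dashed line is the floor of 46.9. The longest bars are those of RDX and NCKAP1, which end at or near the floor.

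The actins themselves hardly differed. ACTB, which encodes beta-actin, had a signal of 11480 in the parental and 11452 in the K-ras line, a log2 ratio of -0.004. Its other probe set outside the controls gave 0.04. The control probe sets of ACTB, not used as a gene row, were all higher in the K-ras line. They were 6889 and 8458 (5′), 8850 and 10901 (middle) and 8798 and 9316 (3′). Both probe sets outside the controls are _x_at ones, which can pick up related transcripts, so the gene is uncertain. Another 8 probe sets carry the names of both ACTB and ACTG1, which encodes gamma-actin, and cannot tell the genes apart. Their log2 ratios ran from -0.40 to 0.07 with a median of -0.20, and 7 of the 8 were below 0. The ACTB ratio lay between -0.24 and 0.19 across the scalings tried, so it has no direction.

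ARP2/3 subunits stayed within 2-fold in their chosen probe sets, with ARPC1A and ACTR3 the furthest on the lower side. All 7 measured subunits were under 2-fold, with a median log2 ratio of -0.13 that became 0.07 with maintenance scaling. ARPC1A, a propeller subunit, had the lowest ratio, from 1477 in the parental line to 855 in the K-ras line, a log2 ratio of -0.79. Its paralog ARPC1B went from 999 to 1167, a log2 ratio of 0.22. The pair thus differed by 1.01, with neither gene past 2-fold. ACTR3, the actin-related subunit that forms the base of the branch, was 3128 and 1961 in its chosen probe set, a log2 ratio of -0.67. Its other probe sets gave -0.96 and -1.32, so all 3 lay on the lower side and 1 of them passed 2-fold. ARPC4, which helps form the core of the complex, had the highest ratio of the group, with signals of 219 and 258. ARPC2, ARPC3 and ARPC5 had log2 ratios of -0.35, -0.13 and -0.07.

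The activators of ARP2/3 lay on both sides of their parental levels. The WAVE group held 1 gene past 2-fold on each side among 4 measured, with a median of -0.14 (0.06 with maintenance scaling). WASF2, the WAVE protein that binds ARP2/3, went from 387 in the parental line to 858 in the K-ras line, 2.22-fold higher. NCKAP1, a scaffold subunit of the same complex, went from 876 to 70.3, 12.5-fold lower. A second NCKAP1 probe set, at 106 in the parental line and under the floor with the oncogene, was at least 2.25-fold lower. So subunits of 1 complex lay on opposite sides, and the direction of NCKAP1 was shared by both of its probe sets while its size was not. CYFIP1, which links the complex to RAC, was 958 and 736, a log2 ratio of -0.38. ABI1, an adaptor of the complex, was 130 and 139, with a bound of -0.54 in another probe set. WASL (N-WASP) and CYFIP2, the paralog of CYFIP1, were not measured, with no signal over 36.8.

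Formins stayed level. DIAPH1, which elongates straight filaments, had signals of 697 in the parental and 631 in the K-ras line, and a log2 ratio of -0.14. Its other 2 probe sets gave 0.35 and 0.44, so the sign depends on the probe set. DIAPH2 was 73.1 and 65.7, close to the floor on both arrays.

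Among genes of monomer supply and filament turnover, 1 of 6 measured passed 2-fold. PFN1, the main profilin, was 4165 in the parental and 8497 in the K-ras line, 2.04-fold higher. PFN2, its paralog, was 1892 and 1750, a log2 ratio of -0.11. The 2 profilins differed by 1.14, and PFN1 lay just past the threshold: its log2 ratio was 0.81 to 1.23 across the scalings tried. CFL1 (cofilin), which severs aged filaments, had a log2 ratio of 0.27, and its relative DSTN (destrin) -0.37, with -0.45 in a second probe set. TMSB10, a thymosin that holds monomers, had 0.20, and between -0.04 and 0.40 across scalings. LIMK2, the kinase that switches cofilin off, had probe sets at 0.46, 0.24 and -0.81 and therefore no settled direction.

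The filament-end genes lay on both sides. Of 5 measured capping and severing genes, 2 were past 2-fold on the higher side and 2 on the lower side, around a median of 0.71. CAPZA2, an alpha subunit of capping protein, went from 570 in the parental line to 72.5 in the K-ras line, 7.86-fold lower, and its second probe set from 274 to 73.3, 3.74-fold lower. CAPZA1, the other alpha subunit of that heterodimer, was 1557 and 601, 2.59-fold lower. CAPZB, their shared beta partner, was 840 and 1375, a log2 ratio of 0.71, with 1.75-fold and 2.01-fold higher signals in 2 further probe sets. Both alpha subunits were thus lower while every measured probe set of the beta subunit was on the higher side. GSN (gelsolin) and CAPG, of a family that caps or cuts filaments in response to calcium, were higher. GSN was 360 and 760, 2.11-fold higher, with at least 2.45-fold in another probe set, and CAPG was 524 and 1056, 2.02-fold higher. Both lay just past the threshold: under median centring their log2 ratios were 0.98 and 0.91, and with the floor as a pseudocount 0.99 and 0.95. SVIL (supervillin), a relative outside the list, had a log2 ratio of -0.60 from signals near the floor. VIL1 (villin), the family member of the microvillus core, was not measured, at 10.6 and 4.40.

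**Figure D2:**
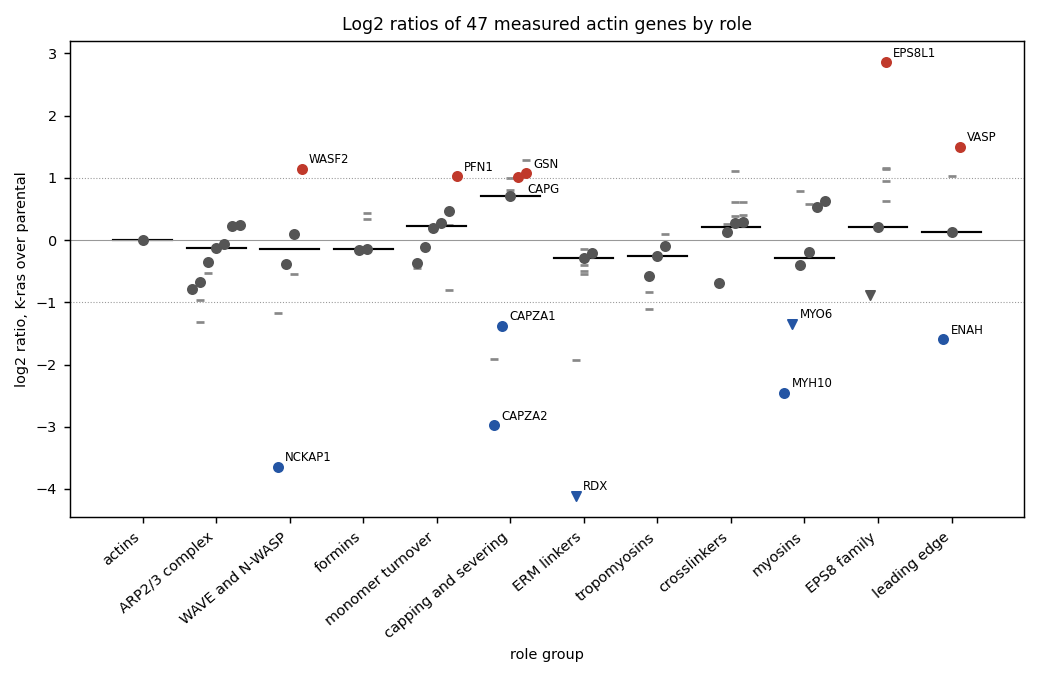
Log2 ratio of K-ras over parental signal for the 47 measured members by role group, with 1 array per line. Circles are values, triangles are bounds, short grey ticks are other measured probe sets of the same gene (some of them bounds), black bars are group medians and dotted lines mark 2-fold. In their chosen probe sets ARP2/3 subunits, tropomyosins and crosslinkers stay inside 2-fold, with ticks beyond it for ACTR3, TPM1 and SPTBN1, whereas the capping group has members beyond 2-fold on both sides.

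The ERM linkers had 1 very low member. RDX (radixin) went from 808 in the parental line to 46.5 in the K-ras line, just under the floor, and was at least 17.2-fold lower. Its second probe set, at 301 and 79.0, was 3.82-fold lower. EZR (ezrin), the ERM protein of microvilli, was 950 and 782, a log2 ratio of -0.28, and 3 further probe sets that reached the floor on each array gave -0.55 to -0.40. MSN (moesin) was 1508 and 1310, a log2 ratio of -0.20. All 3 ratios were below 0. Both RDX probe sets lay further from EZR and MSN than the spread between probe sets, though the RDX probe sets also differed from each other. That spread holds no variation between replicate arrays, so the gap could not be set against such variation.

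Tropomyosins stayed under 2-fold. TPM1 was 835 in the parental and 559 in the K-ras line, a log2 ratio of -0.58 from an uncertain _x_at set. Other TPM1 probe sets, which may cover different isoforms, gave -0.84 and -1.11. TPM2 had a ratio of -0.26 and TPM4 -0.10, the latter 0.11 in a second probe set. The group median was -0.26, and between -0.35 and -0.06 across the scalings. Crosslinkers were level as well, 4 of 4 measured being under 2-fold. ACTN1, an alpha-actinin that bundles filaments, was 2297 and 2811, a log2 ratio of 0.29, with 0.62 and 0.41 in other probe sets. Its paralog ACTN4 was 845 and 523, a log2 ratio of -0.69. The spectrins SPTAN1 and SPTBN1, which form the membrane skeleton, had ratios of 0.13 and 0.28, though 1 of the other SPTBN1 probe sets gave 1.11.

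Nonmuscle myosin II heavy chains differed in ratio. MYH10, the heavy chain of myosin IIB, was 569 in the parental and 104 in the K-ras line, 5.47-fold lower. MYH9, the heavy chain of myosin IIA, was 804 and 1162, a log2 ratio of 0.53. The pair differed by 2.98 on the log2 scale. MYH10 was between -2.55 and -2.25 and MYH9 between 0.43 and 0.73 across the scalings. Scaling shifts both genes nearly alike, so it could not test their order. The other MYH10 probe set was not measured, and MYH9 had only 1 probe set. MYO6, the motor that walks toward the pointed end of the filament, was 119 and below the floor, at least 2.54-fold lower, and its other 2 probe sets were not measured. MYO10, the motor of filopodia, had -0.19. Of the light chains, MYL6 had -0.39 with a bound of 0.79 in another probe set, and MYL9, the regulatory chain, 0.64 from signals near the floor. Of 6 measured myosin genes, none was at least 2-fold higher and 2 were lower, with a median of -0.29.

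Proteins of the leading edge and of filament-end signalling included the highest ratio of the list, which rests on 1 probe set of EPS8L1. EPS8L1, a relative of the actin-capping adaptor EPS8, was 63.3 in the parental and 459 in the K-ras line, 7.24-fold higher in its chosen probe set, an uncertain _x_at one. Its 3 other probe sets with full values gave log2 ratios of 0.96 to 1.16, so the direction was shared and the size was not. EPS8 itself was 86.1 and below the floor, at least 1.84-fold lower, and EPS8L2 had a log2 ratio of 0.22. VASP, which protects growing filament ends from capping, was 196 and 556, 2.84-fold higher. Its paralog ENAH (Mena) was 236 and 78.4, 3.01-fold lower. CTTN (cortactin), which stabilises branches, was 441 and 481, with a log2 ratio of 0.13 and 1.04 in 1 of the other probe sets.

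Related genes were set side by side in 16 sets, of which 11 had at least 2 measured members. In 7 of the 11 the highest and the lowest log2 ratio differed by more than 1. The standard deviation between genes was 0.92 over all genes with full values, so gaps of that size are also common between unrelated genes. Their share among unrelated sets of the same sizes was not computed, so the count is a description and no feature of these families. The largest gaps were 3.90 for RDX against MSN and 3.73 for EPS8L1 against EPS8, both as bounds, 3.09 for VASP against ENAH and 2.98 for MYH9 against MYH10. The size of the EPS8L1 gap rests on its chosen probe set. The Ena/VASP pair was the 1 set with a gene at least 2-fold higher and another at least 2-fold lower, and with the floor at the 70th percentile ENAH was at -0.95, inside 2-fold. DIAPH1 and DIAPH2 differed by 0.01, and the tropomyosins by 0.48. A gap within a set is not changed by 1 factor for the whole array, but quantile normalization and loess can change it. Under quantile normalization PFN1 was at 0.81 and PFN2 at -0.18, and ARPC1B at 0.17 and ARPC1A at -0.81. Neither pair then differed by more than 1. Each gap also compares different probes on 1 array per line.

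**Figure D3:**
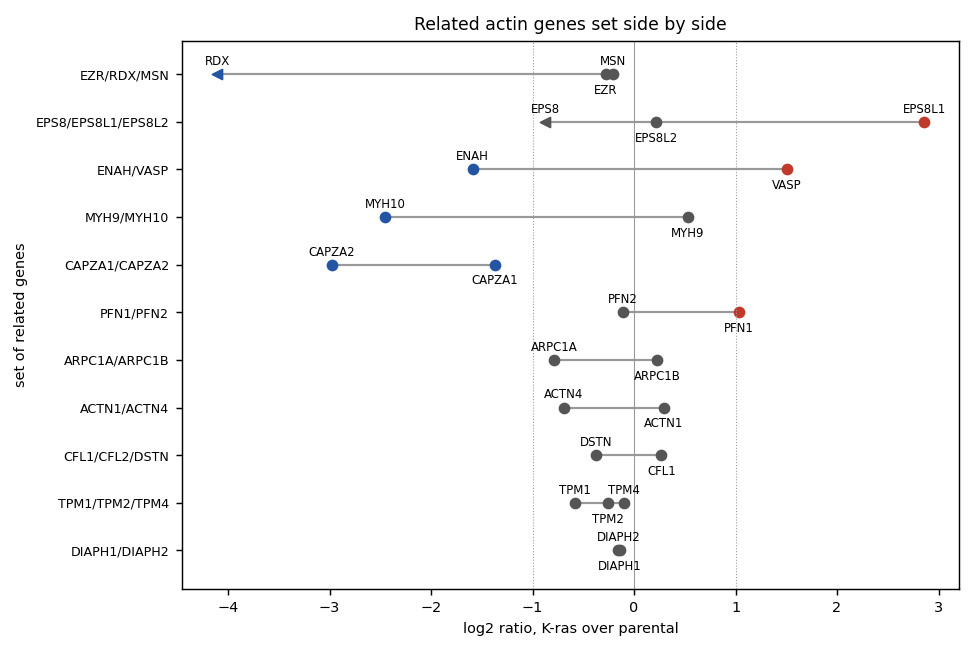
Log2 ratio of K-ras over parental signal for the members of the 11 sets of related genes with at least 2 measured members, with 1 array per line. Arrowheads are bounds, red and blue mark genes past 2-fold on the higher and lower side, and dotted lines mark 2-fold. VASP and ENAH lie past 2-fold on opposite sides, and DIAPH1 and DIAPH2 coincide.

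Promoters are shown for pairs that differed (VASP with ENAH, MSN with RDX) and for TPM4, the measured member with a CArG box, the element bound by serum response factor at many actin genes. Each run is the 250 bases before the start site in RefSeq, build GRCh38.p14, 5′ to 3′ on the gene's strand. Capitals mark a CArG box or a GC box (GGGCGG), searched on both strands, and neighbouring GC boxes can overlap. The positions are chr19:45507229-45507478 (plus strand) for VASP, chr1:225653124-225653373 (minus strand) for ENAH, chrX:65588127-65588376 (plus strand) for MSN, chr11:110296615-110296864 (minus strand) for RDX and chr19:16067288-16067537 (plus strand) for TPM4.
VASP: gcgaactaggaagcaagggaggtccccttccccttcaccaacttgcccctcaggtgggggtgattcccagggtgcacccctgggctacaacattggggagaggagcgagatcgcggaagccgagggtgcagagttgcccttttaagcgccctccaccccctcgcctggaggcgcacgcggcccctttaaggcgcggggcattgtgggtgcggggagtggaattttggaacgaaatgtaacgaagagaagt
ENAH: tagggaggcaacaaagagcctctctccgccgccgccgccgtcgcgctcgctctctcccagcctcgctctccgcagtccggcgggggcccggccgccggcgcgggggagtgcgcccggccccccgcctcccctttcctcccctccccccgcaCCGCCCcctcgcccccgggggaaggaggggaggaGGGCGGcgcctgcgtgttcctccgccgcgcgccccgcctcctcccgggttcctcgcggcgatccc
MSN: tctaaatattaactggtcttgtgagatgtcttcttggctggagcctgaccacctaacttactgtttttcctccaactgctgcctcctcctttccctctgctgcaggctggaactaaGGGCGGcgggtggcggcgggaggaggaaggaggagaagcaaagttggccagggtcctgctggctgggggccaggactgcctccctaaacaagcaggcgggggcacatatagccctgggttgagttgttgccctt
RDX: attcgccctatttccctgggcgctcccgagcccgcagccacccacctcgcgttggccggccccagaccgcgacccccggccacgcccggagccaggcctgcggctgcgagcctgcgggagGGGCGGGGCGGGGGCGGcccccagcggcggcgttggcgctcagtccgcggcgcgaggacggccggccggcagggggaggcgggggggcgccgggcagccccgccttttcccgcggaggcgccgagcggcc
TPM4: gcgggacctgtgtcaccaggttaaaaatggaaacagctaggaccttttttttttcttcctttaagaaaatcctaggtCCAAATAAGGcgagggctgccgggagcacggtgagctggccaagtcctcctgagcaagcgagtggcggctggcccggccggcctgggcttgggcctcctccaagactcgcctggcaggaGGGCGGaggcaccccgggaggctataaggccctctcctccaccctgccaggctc

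The printed promoters differ in base composition. That of VASP has 61.6% G and C and no GC box, and that of ENAH 80.0% and 2 GC boxes. That of MSN has 57.2% and 1 GC box, and that of RDX 82.0% and 3. The TPM4 promoter holds its CArG box from 173 bases before the start. Of the 56 members 48 had a promoter in the reference table. A CArG box was found in 3 of the 48 (6.25%, against 1.14% of 27305 promoters of the same length), namely those of ACTG1, TPM4 and FLNA. A GC box was in 44 of 48 (91.7%, against 42.3% of all promoters), and a TATA box (TATAAA) in 1 of 48 (2.08%, against 11.1%). The promoters of measured genes lay closer to the members, with a GC box in 72.2% of higher, 67.1% of lower and 67.3% of other genes, and a TATA box in 7.20%, 5.58% and 5.67%. Median G and C was 78.4% over the 7 lower members, 61.6% over 5 higher ones and 71.6% over 28 under 2-fold. Over all measured genes with a promoter the order was not the same, at 63.6% for 950 lower genes and 66.8% for 625 higher ones. A match is a run of letters and no measured binding.

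Lower members had long genomic spans. The genomic span, from first to last base of the gene, ran from 51.8 to 170 kb in the 7 lower members, with a median of 129 kb. In the 6 higher members it ran from 2.88 kb (PFN1) to 131 kb (GSN), with a median of 23.7 kb, and in the 34 under 2-fold the median was 40.1 kb. Over all measured genes the medians were 45.0 kb for lower and 18.6 kb for higher genes. Across the 47 members Spearman's correlation between log10 span and log2 ratio was -0.32, and across 7690 measured genes -0.24. These describe genes of the same 2 arrays, which are not independent replicates. Removing the trend with span left all 7 lower members at least 2-fold lower and 5 of the 6 higher ones at least 2-fold higher, PFN1 being the exception. CAPZB then passed 2-fold on the higher side. The lower members nearest to 2-fold went from -1.34 to -1.07 (MYO6, bounds) and from -1.37 to -1.15 (CAPZA1). So small a shift could hardly remove a lower call, and the part of span in these ratios was not tested.

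**Figure D4:**
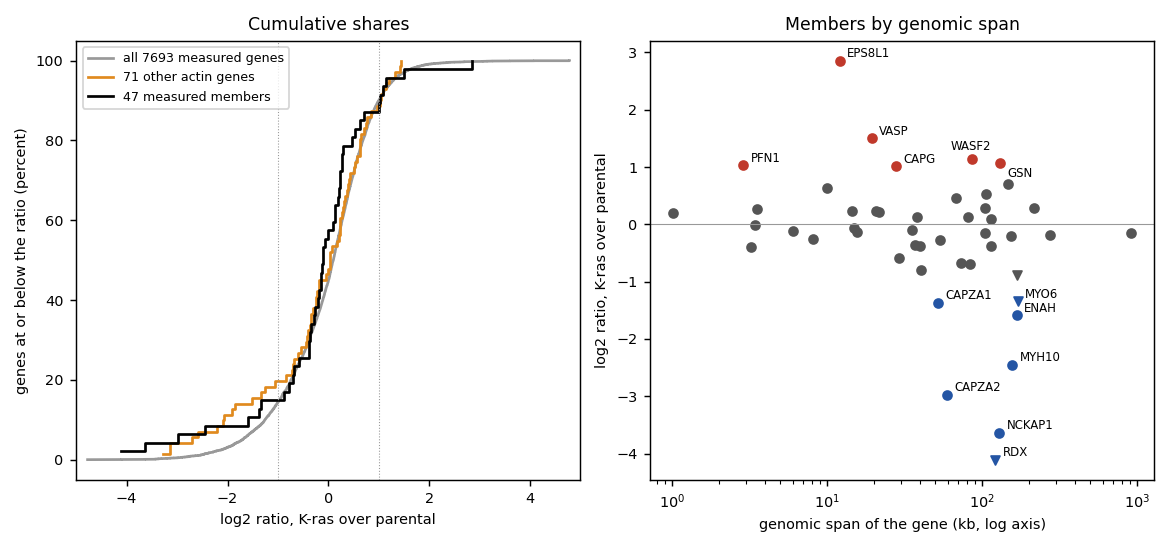
Left, cumulative percent of genes by log2 ratio of K-ras over parental signal for all 7693 measured genes, 71 other actin genes and the 47 measured members, with dotted lines at 2-fold. Right, log2 ratio of each measured member against its genomic span in kb (log axis), with triangles for bounds. The 7 lower members lie at spans of 51.8 kb or more, and the curves cross the 2-fold lines at similar heights except that the other actin genes have more lower members.

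A second list of 88 actin genes outside the members was set beside them, covering small GTPases, kinases, further myosins, bundlers and adhesion linkers. Of these, 78 had a probe set and 71 were measured, with a median log2 ratio of 0.03. Past 2-fold, 8 (11.3%) lay on the higher side and 14 (19.7%) on the lower side. Over all measured genes these shares were 9.97% and 14.4%. The lowest above the floor on both arrays was IQGAP1, a scaffold that binds RAC, CDC42 and actin, with signals of 534 in the parental and 54.9 in the K-ras line, 9.72-fold lower. TWF1 (twinfilin), which binds monomers and capping protein, was 534 and 60.3, 8.85-fold lower. PLS3, a plastin that bundles filaments, was 2300 and 355, 6.48-fold lower. ARHGDIB, an inhibitor of small GTPases, was 5.99-fold lower and the calponin CNN3 4.21-fold. The highest with full values were CORO1B (coronin), at 166 and 442 and 2.66-fold higher, PDLIM7 at 2.52-fold, SSH3, a cofilin phosphatase gene, at 2.32-fold on an uncertain probe set, MYO1D at 2.22-fold and ARHGDIA, the relative of ARHGDIB, at 2.11-fold on an uncertain probe set. CORO2A, another coronin, was under the floor in the parental line and at least 2.71-fold higher. ROCK1, a kinase that activates myosin II, went from 414 to below the floor, at least 8.82-fold lower. PPP1R12A, the myosin phosphatase subunit that acts against it, was at least 3.76-fold lower. Their paralogs were level, ROCK2 at 59.0 and 60.3 on an uncertain probe set and PPP1R12B at 58.6 and 57.1, both near the floor. In this list, as among the members, related genes lay on opposite sides, here ARHGDIA and ARHGDIB.

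Muscle actin, myosin and troponin genes, listed to see whether muscle paralogs could feed the signals, were mostly below the floor. Of 21 with a probe set 12 were not measured, and the highest signal in the list was 95.4 in the parental and 223 in the K-ras line, the latter of TNNT1.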

How the data were processed

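Deposited signal intensities of 22283 probe sets on 2 Affymetrix U133A arrays were used, 1 per line. Per the labels, total RNA was column-purified and labelled as cRNA following Affymetrix. No source used here gives the signal software. The trimmed means (lowest and highest 2% left out) were equal as deposited, so the table was taken as scaled by the authors. A small rescaling made these means identical. Gene names came from the array annotation: 19071 probe sets had 1 symbol, 1043 several and 2169 none. The 68 control probe sets were left out of the gene table. Spans and promoters came from RefSeq, GRCh38.p14. Members, gene lists and settings were chosen with earlier results of these data known. Every member is accounted for; values are given for members past 2-fold, for members of related sets that differ by more than 1, and for the extremes of each role. From the second list the 5 highest and 5 lowest ratios above the floor in both lines are named, and CORO2A, SVIL, ROCK1, ROCK2, PPP1R12A, PPP1R12B and TNNT1 were named after their values were seen. With 1 array per line there is no test, p-value or standard error, and precision is limited by the number of arrays. The procedure was checked on data simulated from the parental array, with known changes in genes well above the floor. Its noise level was set and not taken from replicate arrays, so it gives no measure of precision here. Alternatives covered scaling, floor, choice of probe set and gene span. Python 3.11.15, numpy 2.4.6, pandas 2.3.3 and statsmodels 0.14.6 were used.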

Additional observations from a re-analysis of the deposited data

How the results depend on the processing

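Under 13 alternative settings and a 3-fold threshold, the counts and medians of the list mostly stayed close to those given. The count of higher members fell from 6 to 3 under median centring, where CAPG, GSN and PFN1 dropped under 2-fold, and was 1 at 3-fold. The count of lower members was 8 with the floor at the 30th percentile and 9 with no floor, EPS8 passing 2-fold in both. It was 4 without _x_at and _s_at probe sets, where 28 members were measured and CAPZA1, ENAH and MYO6 had no measured probe set left. With the floor at the 70th percentile it was 5, since ENAH was then a bound of -0.95 and MYO6 was not measured. With no floor the median log2 ratio of the WAVE group was 0.37 and that of the capping group -0.28, since unmeasured genes then enter. The median of the myosin group was 0.20 with the median over probe sets and -0.83 without _x_at and _s_at probe sets, which left 2 genes. A tropomyosin median of 0.11 came from that same setting. No called member changed sign in any setting that measured it, but scaling and floor could hardly reverse ratios of that size. Among called members, the sizes of RDX (log2 ratios of -4.20 to -2.73), NCKAP1 (-3.74 to -1.17), CAPZA2 (-3.07 to -1.90) and EPS8L1 (0.96 to 3.05) depended most on the floor and the probe set. Of the members under 2-fold, LIMK2 ran from -0.81 to 0.74 and MYL6 from -0.67 to 0.79. With maintenance scaling, 14.4% of all measured genes were higher and 11.1% lower. No paired analysis was possible because each line has 1 array. Genes near the floor, such as DIAPH2 and MYL9, are limited by signal over background.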
